A study of Mus musculus with 2 samples.

Results

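Of 26436 barcodes kept from 2 single-cell RNA libraries of sorted mouse lung cells, 94 carried epithelial transcripts without the high surfactant counts of alveolar type 2 cells. A barcode was kept when it held at least 500 detected genes and at most 15% of its unique molecular identifiers (UMIs, 1 per captured transcript molecule) from mitochondrial genes. A member was a kept barcode with at least 2 UMIs in the sum of Epcam and Cdh1, which encode the epithelial adhesion proteins EpCAM and E-cadherin, and with under 2% of its UMIs from Sftpc, the gene of surfactant protein C. The members were thus chosen on their measured Epcam, Cdh1 and Sftpc counts, and these genes are given as a description. The library labelled aWT held 85 members among 15651 kept barcodes, and the library labelled aKO held 9 among 10785.

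Both libraries came from lungs of C57BL/6J mice aged 10 to 12 weeks, 1 library per label. The lungs were digested with Dispase and DNase I, and cells positive for the red fluorescent protein tdTomato were sorted. In these animals tdTomato follows VE-cadherin-cre, a recombinase under the promoter of an endothelial cadherin gene, so that the sort was aimed at endothelial cells and not at epithelium. The series concerns a mouse model of hereditary hemorrhagic telangiectasia 2, a disorder of vessels, and its labels name no deleted allele for aKO, no sex and no number of animals. Libraries followed the 10x Genomics 3' v3 chemistry, which counts transcripts from their 3' ends. With 1 library per label no difference was tested, and the intervals given are exact at 95% and cover counting error only.

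The conducting airways are lined by multiciliated cells, whose beating cilia move mucus, by club cells, which secrete secretoglobins and carry detoxifying enzymes, and by basal cells, their stem cells. The gas exchange surface is covered by flat alveolar type 1 cells and by surfactant-making alveolar type 2 cells. A motile cilium is built around an axoneme of microtubules that dynein motors bend, and the transcription factors FOXJ1 and the RFX family switch on the genes of this structure.

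The deposited matrices held 15996 barcodes with 72270260 UMIs for aWT and 11045 barcodes with 75950364 UMIs for aKO. Members were deeper than other cells, with a median of 11496 UMIs and 4206 genes in aWT against 3981 UMIs and 2017 genes in the 15471 other aWT barcodes (those that were neither members nor alveolar type 2-like). Scrublet, a doublet caller, marked 787 aWT (5.03%) and 370 aKO barcodes (3.43%), against assumed loading rates of 12.8% and 8.84%. Among the marked barcodes were 4 aWT members. The libraries shared 48 barcode sequences, and no member's barcode was shared. Xist, an X-linked RNA of female cells, had UMIs in all 9 aKO members and in 2 of 85 aWT members, and the Y-linked Ddx3y had UMIs in 39 aWT members and in no aKO member. Sex and label therefore cannot be told apart.

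The label airway epithelium fitted most members but not all. Krt8 or Krt18, keratins of simple epithelium that the rule did not use, had UMIs in 74 of 85 aWT members and in 7 of 9 aKO members. Members with at least 0.2% of their UMIs from the ciliated list were set apart as ciliated-like, 66 in aWT and 6 in aKO. Each remaining member was placed by the list with its largest summed UMI count among lists for club, basal, alveolar type 1, alveolar type 2 and endothelial cells. Both steps were chosen after the values had been seen. The alveolar type 1 list led in 6 aWT members, the alveolar type 2 list in 3, and the club list in 2 aWT members and 1 aKO member. The pan-endothelial list led in the other 8 aWT and 2 aKO members. The ciliated list was not always the largest in the ciliated-like members. Of the 66 in aWT, the club list was the largest in 19 and the endothelial list in 5, and of the 6 in aKO in 1 and 1. So 72 of the 94 members were ciliated-like, 9 aWT members had alveolar programs, and the 10 led by endothelial genes were given no epithelial name.

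**Figure D1:**
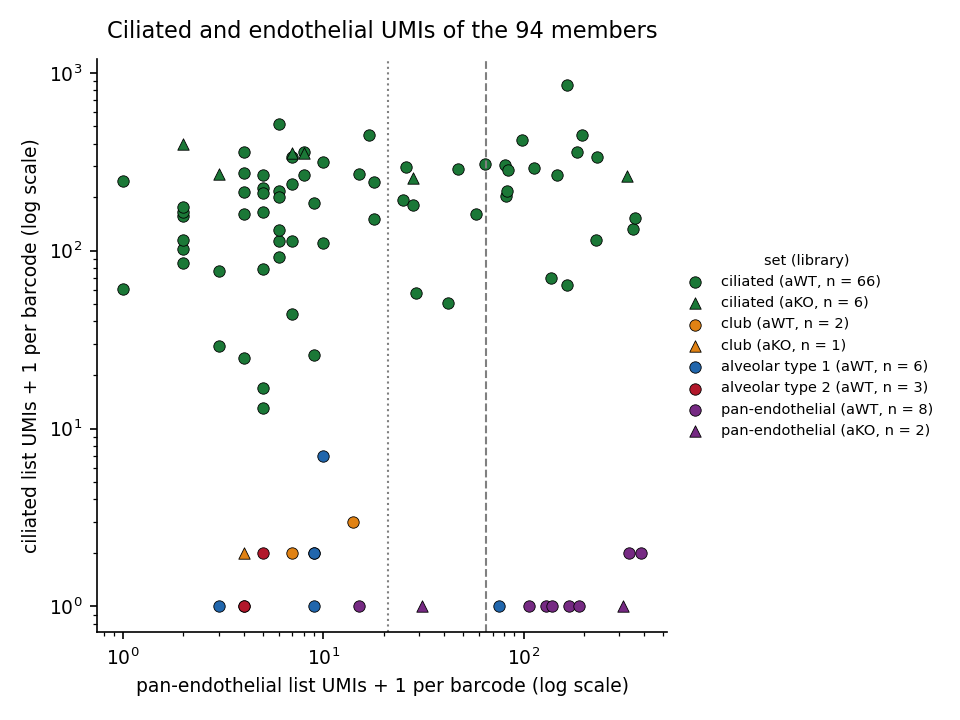
Ciliated list UMIs against pan-endothelial list UMIs of each of the 94 members, both plus 1 on log axes. Colour gives the set, ciliated-like or by leading list, and shape the library, and the dotted and dashed lines stand at the 5th and 25th percentiles (20 and 64 UMIs) of the other aWT barcodes. Ciliated-like members lie above all others on the ciliated axis and spread from 0 to 359 endothelial UMIs.

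A gap in the data set the ciliated-like members apart. The ciliated list of 20 genes made up 0.480% to 2.36% of all UMIs in the 66 aWT ciliated-like members (median 1.5%), while the highest share in any other member was 0.112%. The limit of 0.2% used to cut them lies in this gap. In aKO the 6 ciliated-like members had shares of 0.582% to 2.08%. Among the other aWT barcodes 13 also reached the limit, with a median of 990 UMIs. The share of kept barcodes that were ciliated-like members was 0.422% in aWT (66 barcodes, interval 0.326% to 0.536%) and 0.0556% in aKO (6 barcodes, 0.0204% to 0.121%). Alveolar type 2-like barcodes, which met the same Epcam and Cdh1 limit with at least 2% Sftpc, made up 0.607% of aWT (95 barcodes) and 0.121% of aKO (13 barcodes). All members together were 0.543% of aWT (0.434% to 0.671%) and 0.0834% of aKO (0.0382% to 0.158%).

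At the edge of the rule the members changed in kind. The 12 aWT members with exactly 2 Epcam and Cdh1 UMIs had a median of 0 ciliated and 116.5 endothelial UMIs, and 2 of them were ciliated-like. Just outside, the 73 aWT barcodes with 1 such UMI had medians of 0 ciliated and 107 endothelial UMIs. The 66 aWT members with 4 or more had medians of 189 ciliated and 7 endothelial UMIs, and 60 of them were ciliated-like. On the Sftpc side the gap was wider below the limit of 2% than above it. With a limit of 1% the aWT members numbered 85, and with 5% they numbered 91. The highest share in a member was 0.803% and the lowest in an aWT alveolar type 2-like barcode was 2.65%.

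Members differed from the rest of the aWT library in much of the transcriptome. Counts were summed over each set of barcodes and scaled to the library-size unit CPM, in which the UMIs of a set sum to 1000000. A gene was called by size when it reached 50 CPM in 1 of the sets and differed at least 2-fold on log2(CPM + 5), a scale that understates the change of low genes. Of 5420 genes measured, 1272 (23.5%) lay higher in the 85 aWT members than in the other aWT barcodes and 1221 (22.5%) lay lower, with a median log2 difference of -0.16. For the 66 ciliated-like members alone 1400 of 5517 genes lay higher (25.4%) and 1315 lower (23.8%), with a median of -0.12. The same barcodes chose the members, so these counts and those of the lists below describe the set and test nothing.

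Genes of the motile cilium were high throughout the ciliated-like members. All 20 genes of the ciliated list lay higher in the 66 aWT ciliated-like members, with a median log2 difference of 6.13. These genes had been used to cut the set. The list of ciliary dynein and axoneme genes had 26 measured members outside the ciliated list, and all 26 lay higher, with a median log2 difference of 5.47. Each of the 26 had a UMI in 43 to 66 of the 66 barcodes.

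Tmem212, a gene of a small membrane protein found in ciliated cells, had 0 to 119 UMIs per ciliated-like aWT barcode (median 19.5), with UMIs in 65 of 66. Its level was 1423 CPM (1349 to 1500) there, 0.665 CPM in alveolar type 2-like and 1.05 CPM in other aWT barcodes. Cfap299, a cilia- and flagella-associated gene on chromosome 5 (98329304 to 98802047, plus strand, mm10), had 0 to 77 UMIs (median 19) and stood at 1647 CPM (1566 to 1730), against 1.72 CPM in other barcodes. Tppp3, which encodes a tubulin polymerization-promoting protein, stood at 1498 CPM and was also the ciliated-list gene with the most counts elsewhere, at 52.9 CPM in other barcodes. Among the motors, the inner arm heavy chain gene Dnah12 had a UMI in each of the 66 barcodes, with 4 to 100 UMIs (median 18.5) and 1888 CPM. The level of Dnah12 was 5.66 CPM in other barcodes, and no Dnah12 UMI was counted in the alveolar type 2-like set. Dynlrb2, a dynein light chain gene, stood at 1059 CPM, and Dnah6, another inner arm heavy chain gene, at 867 CPM. Tubb4b, a tubulin gene used in ciliary microtubules, had 0 to 111 UMIs (median 14) and stood at 1280 CPM against 149 CPM in other barcodes. It was kept here in the proliferation list, in which no other gene was called higher and Mki67, Ccnb2, Cdk1 and Birc5 had no UMI in any of the 66 barcodes.

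**Figure D2:**
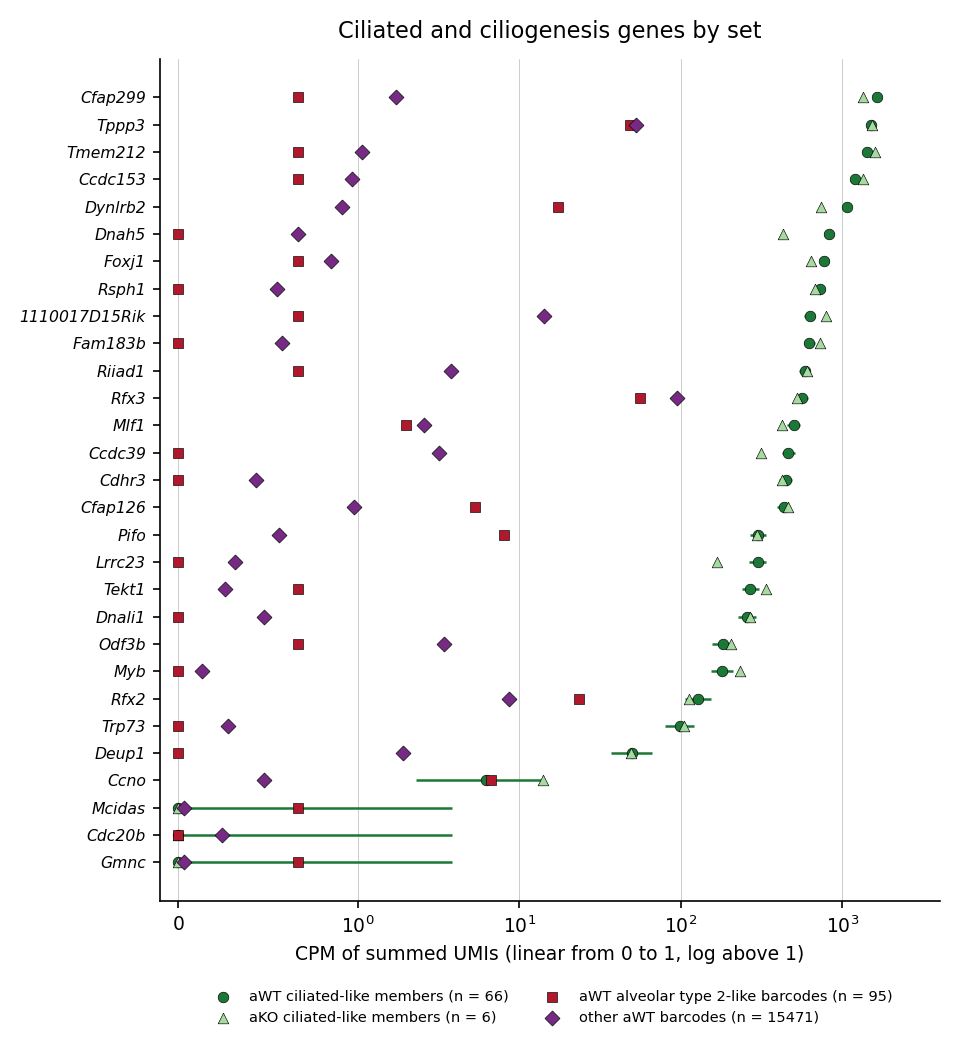
CPM of the genes of the ciliated and ciliogenesis lists in 4 sets of barcodes, ordered by the level in aWT ciliated-like members, with exact 95% Poisson intervals for those members as green lines. The axis is linear from 0 to 1 CPM and logarithmic above. Green points of both libraries lie together on the right for all but the lowest genes, and Mcidas, Cdc20b and Gmnc have no count in the ciliated-like members.

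The factors that run this program split into present and absent. Foxj1, the master factor of motile cilia (chromosome 11, 116330704 to 116335399, minus strand, mm10), had 0 to 42 UMIs per aWT ciliated-like barcode (median 8.5) and UMIs in 61 of 66. Its level was 765 CPM (711 to 822), against 0.851 CPM in other aWT barcodes. In the 6 aKO ciliated-like members it had 7, 7, 11, 16, 25 and 25 UMIs, so that each of the 6 carried it. Rfx3 stood at 560 CPM against 94.0 CPM in other barcodes, and Rfx2 at 128 against 8.61 CPM. Myb, which acts in the step from a dividing to a multiciliated cell, stood at 180 CPM (54 of 66 barcodes), and Trp73, the gene of the p53 relative TAp73, at 98.8 CPM (47 of 66). Both were under 0.3 CPM in other aWT barcodes. By contrast Mcidas, Gmnc and Cdc20b, which act early as a cell commits to making many centrioles, had 0 UMIs in the 66 barcodes. For Mcidas the upper limit of the level was 3.83 CPM. Ccno, of the same early stage, had 1 UMI in each of 6 barcodes, and Deup1, a gene of the deuterosome on which centrioles are assembled, stood at 49.9 CPM with 31 of 66 barcodes positive.

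The starts of many of these genes carry the letters that RFX factors bind. The word GTTGCC, a half-site of the X-box motif, was searched on both strands in the 250 bases before each start site of the RefSeq promoter table (GRCm38.p6, the build also called mm10). Of 57 genes on the ciliated, axoneme and ciliogenesis lists, 47 had an entry in the table, with 57 start sites in all. The word was present before 23 of these 57 start sites (40.4%), in 22 genes, and before 3425 of all 32851 start sites in the table (10.4%). The paired form, GTTNCC followed within 0 to 3 bases by GGNAAC, was present before 3 of the 57 (5.26%) and before 221 of all start sites (0.673%). These are matches of letters and no measure of binding. The 6 windows below are the cilia genes with a match before the annotated gene that had the highest CPM in ciliated-like members. Each is written 5' to 3' on the strand of the gene, with the half-site in capitals (GGCAAC is GTTGCC on the other strand).
Ccdc153: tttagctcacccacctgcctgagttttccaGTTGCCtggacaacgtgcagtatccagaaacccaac
Dynlrb2: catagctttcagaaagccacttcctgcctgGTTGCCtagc
Cfap44: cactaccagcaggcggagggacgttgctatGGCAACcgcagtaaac
Hydin: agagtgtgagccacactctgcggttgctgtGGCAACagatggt
Fam183b: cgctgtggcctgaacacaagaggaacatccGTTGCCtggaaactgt
Spag16: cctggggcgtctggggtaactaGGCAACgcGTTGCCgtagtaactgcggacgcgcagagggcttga
The windows lie at chr9:44240495-44240560 (plus strand) for Ccdc153, chr8:116504934-116504973 (plus) for Dynlrb2 and chr16:44394750-44394795 (plus) for Cfap44. Those of the other genes lie at chr8:110266934-110266976 (plus) for Hydin, chr11:58801961-58802006 (minus) for Fam183b and chr1:69826837-69826902 (plus) for Spag16. Between the last match and the RefSeq start site lie 146 bases in Ccdc153, 45 in Dynlrb2, 13 in Cfap44, 7 in Hydin, 10 in Fam183b and 97 in Spag16. Levels in the aWT ciliated-like members were 1196 CPM for Ccdc153, a coiled-coil gene, 687 CPM for Cfap44, 661 CPM for Hydin, a gene of the central pair of microtubules, 623 CPM for Fam183b and 583 CPM for Spag16. Each of these 5 genes was at or under 1 CPM in other aWT barcodes.

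The ciliated-like members also carried transcripts of the secretory and detoxifying program of the airway. Of the 22 xenobiotic metabolism genes, 16 were measured, 12 lay higher and 2 lower, with a median log2 difference of 4.13. Cbr2, a lung carbonyl reductase gene, had UMIs in all 66 barcodes (2 to 368, median 36) and stood at 3299 CPM (3185 to 3416). Cbr2 stood at 1932 CPM in alveolar type 2-like and at 6.64 CPM in other aWT barcodes. Cyp2f2, the cytochrome P450 gene used as a club cell marker, had 0 to 391 UMIs (median 12.5) and UMIs in 62 of 66 barcodes. Its 1418 CPM compare with 51.8 CPM in alveolar type 2-like barcodes. Aldh1a1, a retinaldehyde dehydrogenase gene, stood at 1154 CPM against 9.30 CPM in the alveolar type 2-like set, and Gstm1, a glutathione transferase gene, at 886 against 86.4 CPM. The 2 genes of the list that lay lower were the flavin monooxygenase genes Fmo1, at 78.0 against 621 CPM in other aWT barcodes, and Fmo2, at 59.3 against 265 CPM.

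Scgb1a1, the secretoglobin that is the main secreted product of club cells, had the largest size difference of any named gene, but 2 barcodes made up most of it. The 85 aWT members held 60312 Scgb1a1 UMIs, of which 31783 were in 1 barcode and 24389 in another, together 93.1%. Leaving out these 2 barcodes, an alternative chosen after the values had been seen, lowered the level in aWT members from 52550 to 4180 CPM. Among the remaining 65 aWT ciliated-like members Scgb1a1 ran from 0 to 342 UMIs (median 31), and 62 of 65 carried it. In the 6 aKO ciliated-like members it ran from 2 to 49 UMIs (median 17.5). Scgb1a1 was also read in the sets that were not members, and how much of it there was background was not tested. It had a UMI in 17.5% of other aWT barcodes (highest count 140) and in 69.5% of the 95 alveolar type 2-like barcodes (median 1 UMI, highest count 466). After thinning each barcode to 2000 UMIs the shares with a UMI were 87.7% in ciliated-like, 22.3% in alveolar type 2-like and 9.45% in other aWT barcodes.

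The barcode with 31783 Scgb1a1 UMIs was club-like. It held 59819 UMIs in all, 2738 of Scgb3a1, 1280 of Scgb3a2 and 588 of Bpifa1, further secreted airway proteins, and only 2 ciliated list UMIs. The barcode with 24389 carried ciliated and club programs together, with 97476 UMIs, 852 of the ciliated list, 42 of Foxj1 and 164 of the pan-endothelial list. It was the deepest member and was not called a doublet (score 0.104), and whether it held more than a single cell was not tested. Scgb3a2 and Scgb3a1 depended on this pair even more. Without it Scgb3a2 in aWT members went from 1636 to 60.6 CPM and Scgb3a1 from 2395 to 10.1 CPM, while Cyp2f2 went from 1578 to 1033 CPM and Cbr2 from 3034 to 2884 CPM. Bpifa1, Muc5b, Ltf and Reg3g had no UMI in any aWT ciliated-like member.

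**Figure D3:**
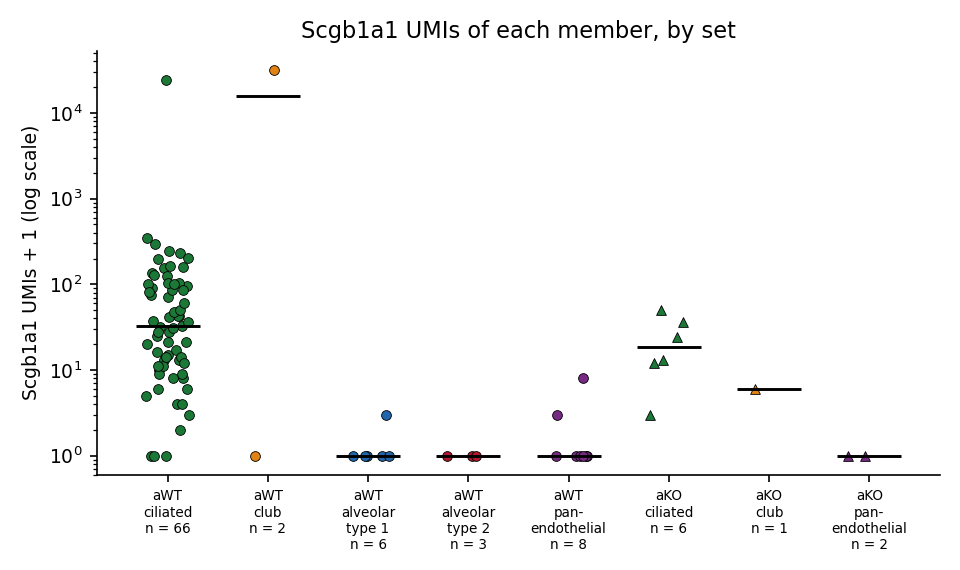
Scgb1a1 UMIs plus 1 of each member on a log axis, by set and library, with the median of each column as a black line. Ciliated-like members of aWT spread from 0 to 342 UMIs apart from 1 at 24389, and the club-led barcode at 31783 stands alone.

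Sec14l3, a lipid transfer gene of the airway, followed Scgb1a1 in the size ranking and did not depend on the pair, at 2226 CPM in aWT members and 2423 CPM without them, against 2.73 CPM in other barcodes. Wfdc2, a secreted protease inhibitor gene, stood at 1903 CPM in members and at 2870 CPM in alveolar type 2-like barcodes. Ank3, the gene of the membrane scaffold ankyrin-G, was also shared with the alveolar type 2-like set (1338 and 3338 CPM). By contrast Spag17, a central pair gene, and Dnah5, an outer dynein arm heavy chain gene, stood at 721 and 693 CPM in members and at 1.33 and 0 CPM in the alveolar type 2-like set. Of the 10 genes with the lowest ratios, Dach1 stood at 84.5 CPM in members against 1012 CPM in other barcodes. Mgp, the gene of matrix Gla protein, stood at 55.8 against 556 CPM, and Cd34, a sialomucin of capillary endothelium, at 13.9 against 177 CPM.

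General epithelial identity was present beside the cilia. Of the 15 pan-epithelial genes 13 were measured and all 13 lay higher in ciliated-like aWT members, with a median log2 difference of 5.77, and Epcam and Cdh1 among them had chosen the members. Krt8 had 0 to 67 UMIs per barcode (median 8) and stood at 721 CPM, against 249 CPM in alveolar type 2-like and 1.34 CPM in other barcodes. Krt18 stood at 544 CPM and Krt19 at 416 CPM. Cldn3, a tight junction claudin, had UMIs in 63 of 66 barcodes and stood at 944 CPM. Of 18 junction and polarity genes 13 were measured, 11 lay higher and none lower. Among transcription factors 12 of 22 were measured, 10 lay higher and none lower. Nkx2-1, the lung lineage factor, stood at 202 CPM against 358 CPM in alveolar type 2-like barcodes. Sox2, the factor of the proximal airway, stood at 123 CPM against 1.33 CPM there, so that these factors were ordered differently in the sets. Sox2 falls outside the rule for naming genes and was picked with its value known. In the 6 aKO ciliated-like members it had 0 to 2 UMIs (28.0 CPM).

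Several markers of the alveolar cells were present in the ciliated-like members. Of the alveolar type 1 list of 16 genes 5 were measured, 4 lay higher than in other aWT barcodes and none lower (median log2 difference 3.43), and of the alveolar type 2 list of 18 genes 5 were measured, 3 lay higher and 1 lower (median 1.52). Sftpc, limited by the rule, had 0 to 4 UMIs per barcode and stood at 69.6 CPM, against 221 CPM in other aWT barcodes. Slc34a2, the phosphate carrier of alveolar type 2 cells, had no UMI in the 66 barcodes and stood at 3764 CPM in the alveolar type 2-like set. The alveolar type 1 gene Rtkn2 had no UMI either, and Ager, the receptor gene that marks these cells, had 1 UMI in each of 3 barcodes. The 4 higher alveolar type 1 genes were Cyp2b10 (289 CPM against 0.447 CPM in other barcodes), Krt7 (98.7 against 2.32 CPM), Cldn18 (82.1 against 3.06 CPM) and Lmo7 (359 against 154 CPM). Hopx, the fifth measured, stood at 348 against 264 CPM. The 3 higher alveolar type 2 genes were the surfactant protein genes Sftpb, Sftpa1 and Sftpd, at 68.6, 88.4 and 53.0 CPM, with UMIs in 12, 13 and 4 of the 66 barcodes. Without the barcode with 24389 Scgb1a1 UMIs, Sftpb, Sftpa1 and Sftpd stood at 13.9, 19.7 and 3.47 CPM, against 8.21, 27.6 and 4.17 CPM in other aWT barcodes. Basal list genes had no UMI at all in these 66 barcodes. Ptprc and 6 other genes of the leukocyte list of 10 had no UMI in any aWT member, and neither did Col1a1, Col1a2 and Col3a1 of the fibroblast list. The 5 genes of the B cell list had none either. These leukocyte and B cell genes were also near 0 in other aWT barcodes, at or under 1.33 CPM.

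Genes of signals to neighbouring tissue went both ways. Of 24 ligand genes 10 were measured, 5 lay higher and 4 lower. Sema3e, whose product guides vessels through plexin D1, had UMIs in 65 of 66 ciliated-like barcodes (0 to 22, median 7) and stood at 560 CPM, against 3.32 CPM in alveolar type 2-like and 2.67 CPM in other aWT barcodes. In the 6 aKO ciliated-like members Sema3e had 10 to 37 UMIs. Nrg1, the neuregulin gene, stood at 285 CPM with 42 of 66 barcodes positive, against 1.99 CPM in alveolar type 2-like barcodes. Areg, the gene of the growth factor amphiregulin, stood at 300 CPM in ciliated-like and 270 CPM in alveolar type 2-like barcodes. Vegfa was among the lower ones, at 36.4 CPM against 295 CPM in other barcodes. Scnn1a, a subunit gene of the epithelial sodium channel, stood at 256 CPM in ciliated-like members and at 1.49 CPM in other aWT barcodes.

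Immediate early and heat shock genes, which enzymatic dissociation can induce, moved in both directions. All 20 were measured, 10 lay higher and 3 lower in ciliated-like aWT members, with a median log2 difference of 0.99. Hsp90aa1 had 3 to 183 UMIs per barcode (median 37.5) and stood at 3014 CPM against 333 CPM in other barcodes, and Fos stood at 2645 against 431 CPM. Jun was near level, at 2792 and 2381 CPM. The lower ones were the inducible heat shock genes Hspa1a (571 against 2264 CPM), Hspa1b (608 against 2235 CPM) and Hspb1 (527 against 1785 CPM). Mitochondrial shares were moderate, with a median of 3.76% in ciliated-like members and 2.34% in other aWT barcodes.

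The pathway behind the disease model was read in the same cells. Of 15 genes that answer to BMP9 and ALK1 or make up their receptors, 12 were measured, none lay higher and 8 lay lower in aWT ciliated-like members, with a median log2 difference of -1.82. The receptor genes Bmpr2, Acvrl1 (ALK1) and Eng stood at 382, 134 and 129 CPM, against 2334, 1024 and 1066 CPM in other barcodes. Acvrl1 and Eng stood higher in members with many endothelial UMIs. Eng is in the pan-endothelial list that divided these members, so its difference follows from the division. In the 42 members with few endothelial UMIs, defined below, Acvrl1 was at 32.8 CPM and Eng at 17.5 CPM, and in the 16 with many they were at 252 and 235 CPM. Id1, a target of BMP signalling, was near level in these sets, at 683 and 709 CPM, and stood at 1196 CPM in other aWT barcodes. Hes1, a Notch target, stood at 390 CPM in all ciliated-like aWT members and 263 CPM in other barcodes.

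The 22 members without a ciliated program were of several kinds. The 6 alveolar type 1-led barcodes of aWT, with 894 to 11224 UMIs, all carried Ager (14 to 119 UMIs, median 43). Ager was at 8878 CPM in them, Rtkn2 at 4152 CPM and Hopx at 3797 CPM. Their endothelial list counts were 2, 8, 8, 8, 9 and 74 UMIs. In the 3 alveolar type 2-led barcodes Sftpc had 1, 22 and 46 UMIs, and Hc, the complement C5 gene, had 9 to 15 UMIs. Of the club-led barcodes 1 in aWT and 1 in aKO also carried basal genes. The aWT one had 8 Krt5, 8 Krt15 and 3 Trp63 UMIs and the aKO one 7, 5 and 9, where Trp63 encodes the p63 factor of basal stem cells. Scgb1a1 was at 0 and 5 UMIs in them. The 8 endothelial-led barcodes of aWT held 14 to 387 endothelial list UMIs and 0 to 2 UMIs of Epcam and 0 to 3 of Cdh1. Calcrl in this set stood at 4168 CPM and Cdh5 at 1643 CPM, near the 4737 and 1995 CPM of other aWT barcodes.

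The endothelial counts of the members were low in most, and in some the raw UMI counts reached those of other aWT barcodes. The pan-endothelial list holds 21 genes, among them Pecam1 and Cdh5, the gene of VE-cadherin whose promoter drives the Cre. All 21 lay lower in aWT ciliated-like members than in other aWT barcodes, with a median log2 difference of -2.85. Per barcode the list had 0 to 359 UMIs in the 66 aWT ciliated-like members (median 7, or 0.0839% of UMIs) and 1 to 336 UMIs in the 95 alveolar type 2-like barcodes (median 9, or 0.0568%). In other aWT barcodes the median was 104 UMIs, or 2.59%. Over all 85 aWT members the median was 8 UMIs (0.124%). The median count per barcode was thus alike in the epithelial sets, but the upper part of the spread differed. The 75th percentile was 61.5 UMIs in the ciliated-like members and 12.5 UMIs in the alveolar type 2-like barcodes.

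**Figure D4:**
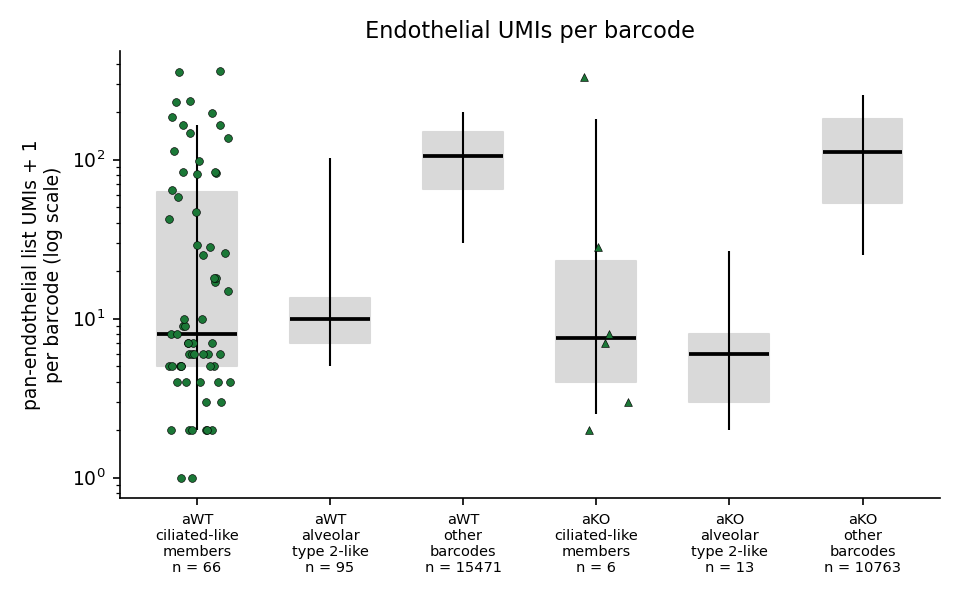
Pan-endothelial list UMIs plus 1 per barcode on a log axis in 6 sets, with the median as a black line, the 25th to 75th percentiles as a grey box and the 10th to 90th as a thin line. Green points are the single ciliated-like members. Most lie under 10 UMIs, and 16 of the 66 in aWT and 1 of the 6 in aKO lie at 80 UMIs or more.

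The ciliated-like members of aWT were divided by the counts of other aWT barcodes, after their values had been seen. A total of 42 members lay under the 5th percentile of those barcodes (20 UMIs), 8 lay between, and 16 were at or over the 25th percentile (64 UMIs). The 42 had a median of 4 endothelial UMIs (0 to 17) and the 16 a median of 154.5 (80 to 359). The 16 were also deeper, with a median of 19490.5 UMIs and 5954.5 genes against 10367 UMIs and 4074.5 genes in the 42. As a share of UMIs the endothelial list had medians of 0.0432% in the 42 and 0.657% in the 16 (highest 2.04%), against 2.59% in other aWT barcodes. After thinning to 2000 UMIs the highest count in a ciliated-like member was 36, against a median of 53 in other aWT barcodes. The 16 were no less ciliated in counts, with medians of 275.5 and 163 ciliated list UMIs, while the ciliated share of UMIs had medians of 1.21% and 1.59%. Of the 16, 2 were called doublets, and of the 42, none. The part of doublets and depth in these counts was not tested. Among the alveolar type 2-like barcodes 13 of 95 (13.7%) reached the same 64 UMIs, and among the ciliated-like 16 of 66 (24.2%).

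In Cdh5 the 16 members lay between the 42 and the rest of the library. Cdh5 belongs to the pan-endothelial list that divided the members, so its rise from the 42 to the 16 follows from the division. Cdh5 stood at 46.0 CPM in the 42 members with few endothelial UMIs, at 557 CPM in the 16 and at 1995 CPM in other aWT barcodes. Foxj1 ran the other way, at 884 CPM in the 42 and 623 CPM in the 16. The vessel subclass genes differed from barcode to barcode. The member with 80 endothelial UMIs held 106 UMIs of the lymphatic genes Prox1, Mmrn1, Flt4 and Reln, and the other 15 held 0 or 1. The members with 230 and 231 held 102 and 98 UMIs of the aerocyte list, the flat capillary cells of gas exchange, and those with 136 and 146 held 49 and 37 UMIs of the venous genes Vwf and Slc6a2. At least 5 Vwf and Slc6a2 UMIs were found in 7 of the 16 (43.8%) and in 20.9% of other aWT barcodes. For the lymphatic genes this limit was reached by 1 of the 16 and by 4.08% of other aWT barcodes. All 16 held at least 5 UMIs of the general capillary list (lowest 17), as did 93.3% of other aWT barcodes. The 16 were deeper, and these shares were not matched for depth.

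**Figure D5:**
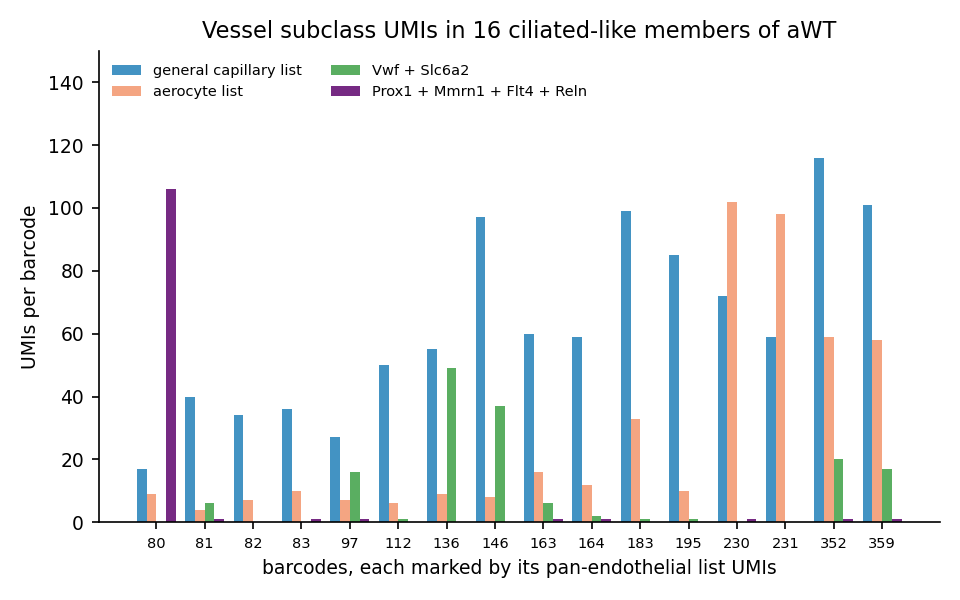
UMIs of 4 vessel subclass gene sets in the 16 aWT ciliated-like members with at least 64 endothelial UMIs, ordered by that count, which marks each barcode on the horizontal axis. General capillary genes are present in all 16, lymphatic genes reach 106 UMIs in 1, and aerocyte genes reach 102 and 98 in 2.

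The sort marker itself was scarce in the members. A tdTomato UMI was found in 20 of 85 aWT members (23.5%), in 16 of 95 alveolar type 2-like barcodes (16.8%) and in 35.4% of other aWT barcodes. As levels these were 24.4 (16.2 to 35.3), 10.6 (6.08 to 17.3) and 116 CPM. After thinning to 2000 UMIs, 2 of 81 aWT members (2.47%, 0.300% to 8.64%) and 20.4% of 13127 other aWT barcodes had a tdTomato UMI, which left out 4 members and 2344 other barcodes. Within the ciliated-like members tdTomato had a UMI in 4 of the 42 with few endothelial UMIs (9.52%, 2.66% to 22.6%), in 3 of the 8 between (37.5%, 8.52% to 75.5%) and in 9 of the 16 with many (56.3%, 29.9% to 80.2%). By CPM, which takes their depth into account, the levels were 8.75 (2.39 to 22.4), 52.1 (16.9 to 122) and 31.8 (16.9 to 54.3), so that the set between was not lower than the 16 and their intervals overlapped.

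The 9 aKO members were too few for a ratio between libraries, which was set at 50 members in each, and are given beside aWT. The 6 ciliated-like ones had 14872 to 45203 UMIs and 256 to 398 ciliated list UMIs. Their levels were 1540 CPM for Dnah12, 1582 CPM for Tmem212, 5140 CPM for Cbr2 and 1071 CPM for Cyp2f2, beside 1888, 1423, 3299 and 1418 CPM in aWT. Scgb1a1 stood at 924 CPM. Endothelial list counts were 1 to 27 UMIs in 5 of the 6, and 329 UMIs in the deepest one, which alone carried tdTomato (1 UMI). Of these 6, 2 were at or over the 5th percentile of other aKO barcodes (15 UMIs). The other 3 aKO members were the club-led barcode with basal genes and 2 endothelial-led barcodes with 30 and 313 endothelial UMIs, each with 2 Cdh1 UMIs and no Epcam. The smaller share of epithelial barcodes in aKO held for members and for alveolar type 2-like barcodes alike, and with 1 library each, label, animal and sort cannot be told apart.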

How the data were processed

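Raw UMI counts per gene and barcode were used as the authors deposited them, 1 matrix per library, made with Cell Ranger 7.2.0 on mm10 per the submitters' processing notes. For the annotation release and the treatment of introns, the entry is "not given in the sources used here". The count matrices gave 32286 features, of which 32158 matched GENCODE M21. Barcodes were kept from 500 genes upward, with up to 15% mitochondrial UMIs, and members were those with at least 2 Epcam and Cdh1 UMIs and under 2% Sftpc. Members and gene lists (37 lists, 453 genes, Dnai1 and Dnai2 not among the features) were chosen with earlier results of these data known. Counts were summed over each set of barcodes. Differences used a pseudocount of 5 CPM, a minimum of 50 CPM and a limit of 2-fold, and had no test, since there was 1 library per label. Intervals are exact at 95% (Poisson for levels, Clopper-Pearson for shares) and hold counting error alone.

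Named genes were fixed by a rule. It took Epcam, Cdh1, Krt8, Krt18, Sftpc, tdTomato, Pecam1 and Cdh5, up to 4 genes per list by the highest level in aWT members, list genes at 0, and the 20 highest and 10 lowest log2 differences without mitochondrial, ribosomal, haemoglobin, immunoglobulin and sex-linked genes. Genes named beyond it (among them Sox2, Fmo1, Fmo2, Ccno, Deup1, Trp73, Acvrl1, Eng and the genes of the promoter windows) were picked with their values known. Doublets were scored with Scrublet in scanpy 1.11.5 at an expected rate of 0.8% per 1000 barcodes. Its calls fell short of these assumed rates, so uncalled doublets may remain among the barcodes, and no called barcode was removed. Members were clustered on 1000 variable genes, 15 components and 10 neighbours with leidenalg 0.10.2 at resolution 0.5. Depth was compared after thinning to 2000 UMIs. Software was Python 3.11.15, numpy 2.4.6, scipy 1.17.1 and edgeR 4.0.16, the last for TMM factors as an alternative scaling. The summing and size rule was checked on simulated data. Alternatives changed the member limits, the pseudocount, the minimum level, the scaling and the resolution.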

Additional observations from a re-analysis of the deposited data

How the results depend on the processing

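No paired analysis was possible because each label has 1 library, and the shared replicate number was given in accession order only. The number of aWT members was 85 and ran from 45 to 91 over 10 alternatives, and that of aKO members was 9 and ran from 4 to 9. In both, thinning to 2000 UMIs gave the lowest value (45 and 4), which follows from the fewer Epcam and Cdh1 UMIs left. The median endothelial share of 0.124% in aWT members became 0.420% when UMIs were summed over members and 0.0161% with Pecam1 and Cdh5 alone, which count fewer genes. The other 11 of 13 alternatives stayed within its order-statistic interval of 0.0684% to 0.204%. With no minimum level the size rule called 2541 genes higher and 2092 lower, against 1272 and 1221, since more genes were compared. Of the called genes 51.0% lay higher, 46.8% with TMM factors and 55.1% with the mean of each barcode's own CPM. Resolution 1 gave 6 sub-clusters in place of 3. Leaving out the 2 Scgb1a1-rich barcodes and using ciliated-like members alone were chosen after the data had been seen. With 1 library per label the spread between animals is unknown, and sets of few barcodes limit the precision of each level.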

Other observations

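Among the 10763 other aKO barcodes, which met neither epithelial rule, 1 barcode held 5256 club list UMIs among 6570 in all (80.0%), with 5156 of Scgb1a1 and 54 of Scgb3a2. It had 642 genes, no Epcam or Cdh1 UMI, 3 UMIs of Krt8 and Krt18 together and 3 of the pan-endothelial list. The highest club list share among other aWT barcodes was 5.90% (50 of 847 UMIs). At least 1% of UMIs came from the ciliated list in 2 other aWT barcodes and in 1 other aKO barcode.

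Clustering of the 94 members gave 3 sub-clusters, none of which was given a cell type name, since ciliated-like members made up most of each. The first held 35 members, 25 of them ciliated-like, with a median of 112 endothelial list UMIs. The second held 30, with 22 ciliated-like and a median of 5.5 endothelial UMIs, and the third 29, with 25 ciliated-like, a median of 4 and no aKO member.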
